A study of Mus musculus with 6 samples.

Results

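The 10 genes described here are Nkx2-5 and 9 other genes of the cardiac mesoderm (Isl1, Mesp1, Mesp2, Myh6, Tbx5, Hand1, Hand2, Mef2c and Tbx20), out of 18516 genes named on the arrays. They were chosen by name, and every probe whose RefSeq entry carries one of these symbols was taken, which gave 16 probes. Of the genes, 5 had 1 probe, 4 had 2 probes and 1 had 3 probes.

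Total RNA was hybridised, 1 sample to an array, to 6 whole mouse genome arrays (Agilent, Cy3 only), from mouse embryonic stem cells grown on gelatin in medium with serum and LIF, 2 arrays in each of 3 groups. The 15-2KO_Flag15-2 cells were 15-2-/- and 15-1CT/CT and carried a piggyBac vector that makes Flag-tagged Dppa2 from the CAG promoter. The 15-2KO_mock cells were the same knockout lines, 15-2-/- and 15-1CT/CT, with the piggyBac-CAG-IP vector without the Flag15-2 insert. The WT cells were 15-2+/+ and 15-1+/+ and were not transduced, so both comparisons with WT also contain the transduction and the conditional targeted (CT) allele. ECAT15-2 is Dppa2, a chromatin protein with a SAP domain that pluripotent cells make, and ECAT15-1 is its partner Dppa4. All lines came from blastocysts of 2 intercrosses on a mixed background of 129Sv, C57/BL6 and an unknown strain. Replicate 1 of Flag15-2 and of mock was 1 knockout line from the first mother, replicate 2 was 1 knockout line from the second, and the WT lines shared only the mothers with them.

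Heart muscle forms from mesoderm that leaves the primitive streak. In the embryo, the transcription factors Mesp1 and Mesp2 mark mesoderm that is newly formed, and Mesp1 is expressed in the precursors of the heart. Nkx2-5, Isl1, Tbx5, Tbx20, Hand1, Hand2 and Mef2c are transcription factors of the heart progenitors, and Myh6, the alpha heavy chain of cardiac myosin, belongs to the contractile apparatus of the heart muscle cell. Embryonic stem cells in LIF are pluripotent and precede all of these stages, and the comparisons concern low levels of these transcripts in such cultures. Whether the transcripts came from undifferentiated cells or from differentiating cells among them was not tested.

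The targeted gene was read first, as a check of the labels. Dppa2 lay at -0.05 and 0.35 in Flag15-2, at -2.09 and -2.0 in mock and at 2.13 and 2.07 in WT, all as log2 signal relative to the 75th percentile of the array, the scale of every level below. It was lower in mock than in WT by 4.15 (limma, adjusted p = 0.00565), higher in Flag15-2 than in mock by 2.20 (adjusted p = 0.0268, and 0.0666 with the replicate as a block), and Flag15-2 minus WT was -1.95 (adjusted p = 0.0409). Dppa2 was well above background on every array, mock included, and where its probe lies relative to the deleted part is not given in the sources used here. Dppa4 was at 3.6 and 3.78 in Flag15-2, at 3.47 and 3.67 in mock and at 2.96 and 2.99 in WT and was not called in any comparison (adjusted p from 0.0699 to 0.771). Between 55.9% and 60.4% of probes were well above background on an array, and no spot was saturated. All 9 measured pluripotency markers of a list of 10 were well above background on all arrays of all groups. The WT arrays and the mock arrays lay on 1 slide and the Flag15-2 arrays on another, so slide and Flag15-2 cannot be told apart.

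The WT arrays stood apart. Over 14943 bright spots, 463 differed more than 2-fold between the Flag15-2 arrays and 543 between the mock arrays, against 5 between the WT arrays, and only 0.442% of spots differed between the WT arrays by more than the scanner's error. They are therefore treated as 1 sample in the levels below, with both values printed and no SD. Of 16 Y-linked probes, none was well above background on any knockout array, against 7 and 4 on the WT arrays. Both comparisons with WT therefore also contain this Y-linked difference, which cannot be told apart from the genotype. The tests hold both WT arrays, and with the WT arrays averaged into 1 sample limma called 0 features in each of the 3 comparisons, Dppa2 included (adjusted p = 0.136 in mock against WT). A feature (a named gene, or a probe without a name) is called where its two-sided p, adjusted over all 18764 features after Benjamini and Hochberg, lies under 0.05. Nothing in the labels says more on the independence of the arrays than the lines they came from, so p-values measure the spread between these arrays.

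Of the 10 genes, 7 could be tested, because 2 or more of the 6 arrays read a probe of theirs well above background. Tbx5, Mef2c and Hand2 did not reach this. Tbx5, a T-box factor of the heart and forelimb, had 2 probes, and neither was well above background on any array. Mef2c, a MADS-box factor of muscle, had 1 probe, which was not well above background on any array either. Hand2, a basic helix-loop-helix factor of the right ventricle, had 1 probe not well above background on any array and 1 that was on a single array, mock replicate 1, at -2.52 (140.9 intensity units). On the other arrays this Hand2 probe lay at -7.13 and -7.29 in Flag15-2, at -5.91 in mock replicate 2, and at -7.28 and -7.06 in WT. The high value thus stood on 1 array of 6 and in 1 of the 2 mock lines, and the other Hand2 probe did not show it, at -6.66 on the same array. Arrays cannot tell fewer cells that make a transcript from less of it in each cell, which holds for every level here.

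**Figure D1:**
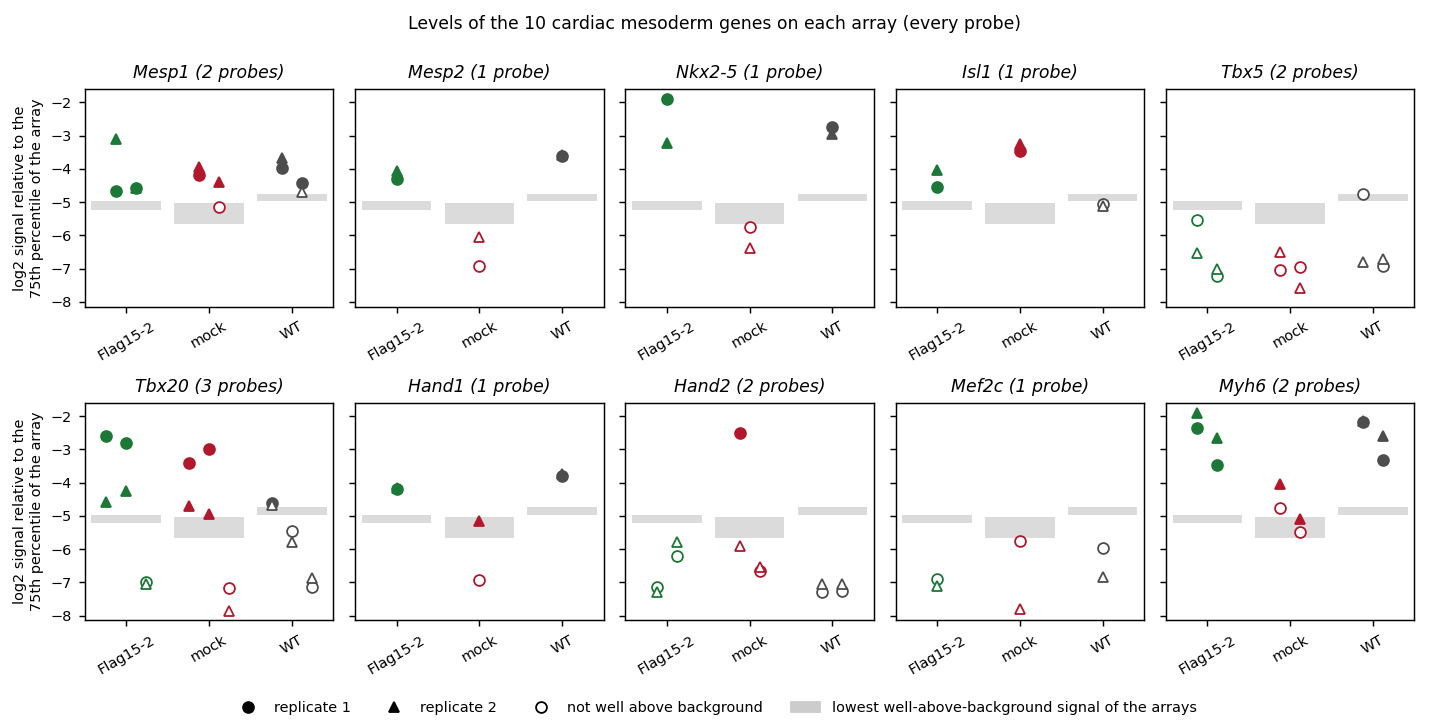
Level of each probe of the 10 genes on each array (y axis, log2 signal relative to the 75th percentile of the array), by group (x axis), with circles for replicate 1, triangles for replicate 2, open symbols for spots not well above background, and a grey band over the lowest well-above-background signal of the group's arrays. Nkx2-5 and Mesp2 are filled in Flag15-2 and WT and open in mock, Isl1 is open in WT, and Tbx5 and Mef2c are open everywhere.

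In the knockout with the mock vector, Nkx2-5, Mesp2 and Myh6 fell and Isl1 rose relative to WT, so 4 of the 7 tested genes were called, against 6.12% of all 18764 features. The 3 that fell compare with 3.65% of features called lower, and the 1 that rose with 2.47% called higher. Nkx2-5 and Mesp2 passed the filter on dim probes through their Flag15-2 and WT arrays alone and Isl1 through the knockout arrays alone, so the count describes the genes that passed and not all 10. Hand1 was not called, with a difference of -2.28, and for Mesp1 and the brightest Tbx20 probe the arrays of the groups overlapped. On the next brightest Tbx20 probe both mock arrays lay above both WT arrays, which were not well above background. How many of all features had groups without overlap was not computed, so such separation, here and below, describes single genes only. Over all features, 464 were called higher and 685 lower, and with each array scaled to its median 1705 were called higher and 666 lower.

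Among the early mesoderm factors, Mesp2, which takes part in somite formation, had levels of -6.93 and -6.06 in mock, neither well above background, against -3.63 and -3.57 in WT. Both mock arrays lay below both WT arrays. Mesp2 averaged -6.49 ± 0.61 in mock (SD, n = 2) and -3.60 in WT, a difference of -2.90 (SE 0.32, adjusted p = 0.0237), and the signal in mock was at least 3.37-fold lower. Such a bound sets the mean of the brighter group against, for each dim array, the lowest signal well above background there or the probe's own signal, whichever is higher. Its paralogue Mesp1, read by 2 probes, was at -4.17 and -3.95 in mock and at -3.97 and -3.67 in WT with the brighter probe, a difference of -0.25 (95% interval -1.72 to 1.22, adjusted p = 0.804). The dimmer Mesp1 probe gave -0.21, with 1 array of each group not well above background.

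Among the heart progenitor factors, Nkx2-5, a homeobox factor, was read by 1 probe, A_51_P173285, at -5.74 and -6.37 in mock and at -2.74 and -2.95 in WT. As processed intensities these were 15.0 and 9.0 units in mock, with scanner errors of 6.61 and 3.83, against 122.2 and 110.9 units in WT, with errors of 13.9 and 13.8. Neither mock array was well above background. Nkx2-5 averaged -6.06 ± 0.44 in mock (SD, n = 2) and -2.85 in WT, a difference of -3.21 (SE 0.50, adjusted p = 0.0438), and it was at least 5.68-fold lower in mock. Hand1, a basic helix-loop-helix factor of the left ventricle and of trophoblast, was at -6.93 and -5.15 in mock, the first not well above background, and at -3.79 and -3.73 in WT. The mock arrays lay below the WT arrays but differed from each other by 1.77, and the difference of -2.28 (SE 0.60) did not pass (adjusted p = 0.103).

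Isl1, a LIM homeobox factor of heart progenitors that is also made by motor neurons and pancreatic islet cells, went the other way. Its 1 probe was printed in 10 spots per array, of which 8 to 10 could be used. In mock, the spots ran from -3.78 to -3.24 (median -3.47) on replicate 1 and from -3.48 to -3.02 (median -3.23) on replicate 2, and every one was well above background. In WT, they ran from -5.54 to -4.48 (median -5.14) on replicate 1 and from -6.15 to -4.54 (median -5.04) on replicate 2, and 3 of 10 and 0 of 9 were well above background. No spot of a mock array was as low as the highest spot of a WT array. Averaged over spots, Isl1 was at -3.35 ± 0.16 in mock (SD, n = 2) and at -5.10 in WT, a difference of 1.75 (SE 0.21, adjusted p = 0.0272), and it was at least 2.83-fold higher in mock.

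**Figure D2:**
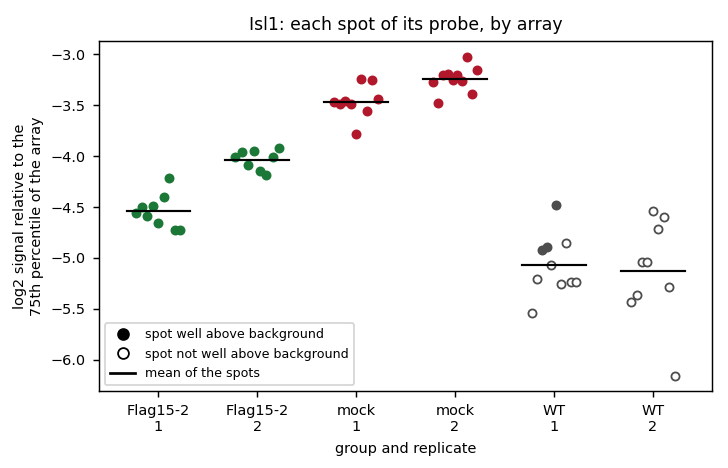
Every usable spot of the Isl1 probe on each array (y axis, log2 signal relative to the 75th percentile of the array; x axis, group and replicate), filled where the spot was well above background, with a line at the mean of the spots. The mock spots lie highest, from -3.78 to -3.02, the Flag15-2 spots between -4.73 and -3.93, and the WT spots, mostly open, between -6.15 and -4.48.

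Tbx20, a T-box factor of the forming heart, was read by 3 probes, 1 of them not well above background on any array. The brightest was at -3.42 and -4.71 in mock and at -4.63 and -4.68 in WT, a difference of 0.59 (95% interval -1.56 to 2.73, adjusted p = 0.681). The next was at -2.99 and -4.93 in mock against -5.46 and -5.77 in WT, where it was not well above background, which puts mock at least 1.85-fold higher (adjusted p = 0.283 with every probe tested). The gap between the mock arrays was 1.30 with the first and 1.94 with the second of these probes, wider than the difference between the group means in each case.

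Of the contractile apparatus, Myh6 was read by 2 probes. The brighter, A_52_P117510, was at -4.75 and -4.05 in mock, the first not well above background, and at -2.17 and -2.14 in WT. Myh6 averaged -4.40 ± 0.50 in mock (SD, n = 2) and -2.15 in WT, a difference of -2.25 (SE 0.30, adjusted p = 0.0336), or 4.75-fold. The dimmer probe was at -5.49 and -5.10 in mock and at -3.31 and -2.59 in WT, a difference of -2.35 (adjusted p = 0.0497 with every probe tested). Both probes of Myh6 thus put the mock arrays below the WT arrays.

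These 4 calls depended on counting the WT arrays as separate samples. With the WT arrays averaged into 1 sample the differences were the same, while the adjusted p was 0.312 for Nkx2-5, 0.218 for Mesp2, 0.27 for Myh6 and 0.241 for Isl1. With normexp background correction, which adds an offset of 50 units to each signal, the differences were -1.15 for Nkx2-5 (adjusted p = 0.052), -0.77 for Mesp2, -1.09 for Myh6 and 0.72 for Isl1. Such an offset by itself makes log2 differences of dim probes smaller, so these sizes cannot be set against the others. Without mock replicate 1 the adjusted p was 0.0995 for Nkx2-5, 0.0774 for Isl1 and 0.0695 for Myh6, without mock replicate 2 it was 0.135 for Nkx2-5 and 0.0972 for Isl1, and Hand1 was called without mock replicate 1 (-1.39, adjusted p = 0.0424) and without mock replicate 2 (-3.17, adjusted p = 0.0214). In these fits mock is 1 array that is assumed to vary like the other groups, and the -3.17 rests on mock replicate 1 alone, where Hand1 was not well above background. Within the slide that holds both groups, which is also the fit's result without either Flag15-2 array, Nkx2-5 (adjusted p = 0.0344) and Isl1 (adjusted p = 0.0284) were called, while Mesp2 (adjusted p = 0.0517) and Myh6 (adjusted p = 0.0548) missed the threshold.

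The stretch just before the annotated start of each of the 4 called genes is shown because these genes were called between mock and WT. The sequences are the 250 bases upstream of the start in RefSeq (assembly GRCm38.p6), a later build than the mm9 named in the array headers, and 8 of the 10 genes had an entry. They lie at chr7:79810477-79810726 on the plus strand for Mesp2, chr17:26841566-26841815 on the minus strand for Nkx2-5, chr13:116309689-116309938 on the minus strand for Isl1 and chr14:54966608-54966857 on the minus strand for Myh6. Each is written from 5′ to 3′ on the strand of its gene, and capitals mark CG dinucleotides, the bases where mammalian DNA is methylated. Methylation itself was not measured on these arrays.
Mesp2: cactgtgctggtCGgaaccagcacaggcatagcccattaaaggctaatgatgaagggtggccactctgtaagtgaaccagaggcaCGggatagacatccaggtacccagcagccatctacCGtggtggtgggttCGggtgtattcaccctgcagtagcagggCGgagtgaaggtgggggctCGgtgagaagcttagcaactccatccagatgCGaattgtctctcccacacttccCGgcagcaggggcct
Nkx2-5: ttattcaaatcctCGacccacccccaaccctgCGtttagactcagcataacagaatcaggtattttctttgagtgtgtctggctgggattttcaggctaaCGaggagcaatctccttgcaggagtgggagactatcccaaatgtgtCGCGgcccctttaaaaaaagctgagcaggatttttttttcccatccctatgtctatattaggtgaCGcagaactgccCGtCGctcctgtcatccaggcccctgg
Isl1: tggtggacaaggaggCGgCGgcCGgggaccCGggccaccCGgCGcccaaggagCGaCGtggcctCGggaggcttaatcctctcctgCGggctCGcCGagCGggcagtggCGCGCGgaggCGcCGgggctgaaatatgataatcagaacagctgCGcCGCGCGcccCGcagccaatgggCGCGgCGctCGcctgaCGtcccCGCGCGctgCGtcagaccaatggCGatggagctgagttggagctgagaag
Myh6: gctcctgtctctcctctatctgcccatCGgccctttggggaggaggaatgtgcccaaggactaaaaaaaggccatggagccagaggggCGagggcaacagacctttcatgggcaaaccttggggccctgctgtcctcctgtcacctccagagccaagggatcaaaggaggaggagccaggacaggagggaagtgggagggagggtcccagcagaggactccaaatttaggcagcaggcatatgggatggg
The window held 8 CG in Mesp2, 8 in Nkx2-5, 33 in Isl1 and 2 in Myh6, against a median of 6 over 32851 promoters (10th percentile 1, 90th percentile 25). The GC content was 57.6% for Mesp2, 49.2% for Nkx2-5, 71.2% for Isl1 and 59.2% for Myh6, against a median of 52.4%. Isl1 thus had more CG than 96.0% of promoters, and the 3 genes that fell lay between the 10th and the 90th percentile. The motif of GATA factors (AGATAA or AGATAG, or the same with T as the starting letter, either strand) occurred 1 time in Isl1, 115 bases before the start, and 1 time in Myh6, 235 bases before it, and 26.5% of promoters held it. It also occurred at 215 and 172 bases before the start of Hand2. The motif of NKX2-5 (TNAAGTG, either strand), present in 10.1% of promoters, was in none of the windows of the 8 genes. A match is a run of letters and not a measured binding site.

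With Flag15-2 in place of the mock vector, Nkx2-5, Mesp2, Myh6 and Hand1 had higher levels and Isl1 lower levels on both arrays, yet limma called 0 of the 7 tested genes, against 0.741% of all features. At an unadjusted p under 0.05 there were 5 of the 7, against 13.4% of features, and an ordinary linear model without moderation also called 0. Nkx2-5 and Mesp2 passed the filter on dim probes without any mock array. A higher level in Flag15-2 or WT than in mock was thus part of how they were kept, and the 5 are no support for a response. With the replicate, here the knockout line, as a block, 0 of the 7 and 4 features in all were called, against 139 without it. Since the same 2 knockout lines carried each vector, the lines can be read side by side. In both lines Nkx2-5, Mesp2, Myh6, Hand1 and Tbx20 were higher with Flag15-2 and Isl1 was lower, while Mesp1 differed in direction. The share of all features that moved the same way in both lines was not computed, so these directions describe single genes only.

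Nkx2-5 was at -1.91 in line 1 and -3.23 in line 2 with Flag15-2, against -5.74 and -6.37 with mock, which is a difference of 3.83 in line 1 and 3.14 in line 2. As intensities, Flag15-2 gave 209.9 and 76.9 units against 15.0 and 9.0 units with mock. Neither mock array was well above background, so the differences by line are not measured sizes. The mean difference was 3.49 (SE 0.50, 95% interval 2.14 to 4.84), at least 6.9-fold, with an unadjusted p of 0.00157 and an adjusted p of 0.0907.

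Mesp2 was at -4.29 and -4.06 with Flag15-2, well above background, against -6.93 and -6.06 with mock, a difference of 2.32 (SE 0.32, adjusted p = 0.08), at least 2.26-fold. The brighter Myh6 probe was at -2.35 and -1.90 with Flag15-2 and at -4.75 and -4.05 with mock, a difference of 2.27 (SE 0.30, adjusted p = 0.0784), or 4.84-fold. The differences in the lines were 2.4 and 2.15 for Myh6, with mock replicate 1 not well above background. For Mesp2 neither mock array was well above background, so its differences by line have no measured size. The dimmer Myh6 probe gave 2.23 (adjusted p = 0.136 with every probe tested). Hand1 was at -4.19 and -4.15 with Flag15-2 and at -6.93 and -5.15 with mock, a difference of 1.87 (SE 0.60, adjusted p = 0.32). Without mock replicate 2, limma called Hand1 (2.76, adjusted p = 0.0327) and Mesp2 (2.75, adjusted p = 0.043), the only members called between these groups under any alternative run. Mock is then 1 array, assumed to vary like the arrays of the other groups, and on it neither gene was well above background, so these calls set Flag15-2 against background signal.

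Isl1 was at -4.54 and -4.03 with Flag15-2 and at -3.47 and -3.24 with mock, a difference of -0.93 (SE 0.21, 95% interval -1.48 to -0.38, adjusted p = 0.187). Its Flag15-2 spots ran from -4.73 to -4.22 on replicate 1 and from -4.19 to -3.93 on replicate 2, below every mock spot. Mesp1 was at -4.68 and -3.11 with Flag15-2 and at -4.17 and -3.95 with mock, a mean difference of 0.17 (95% interval -1.30 to 1.64). Tbx20 was at -2.60 and -4.58 with Flag15-2 and at -3.42 and -4.71 with mock, a difference of 0.48 (95% interval -1.67 to 2.63, adjusted p = 0.88). For Tbx20 the lines differed by more than the vectors did, since line 1 was above line 2 by 1.98 with Flag15-2 and by 1.30 with mock, and the second probe gave gaps of 1.42 and 1.94 in the same direction, against 0.18 and 0.70 between the vectors.

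**Figure D3:**
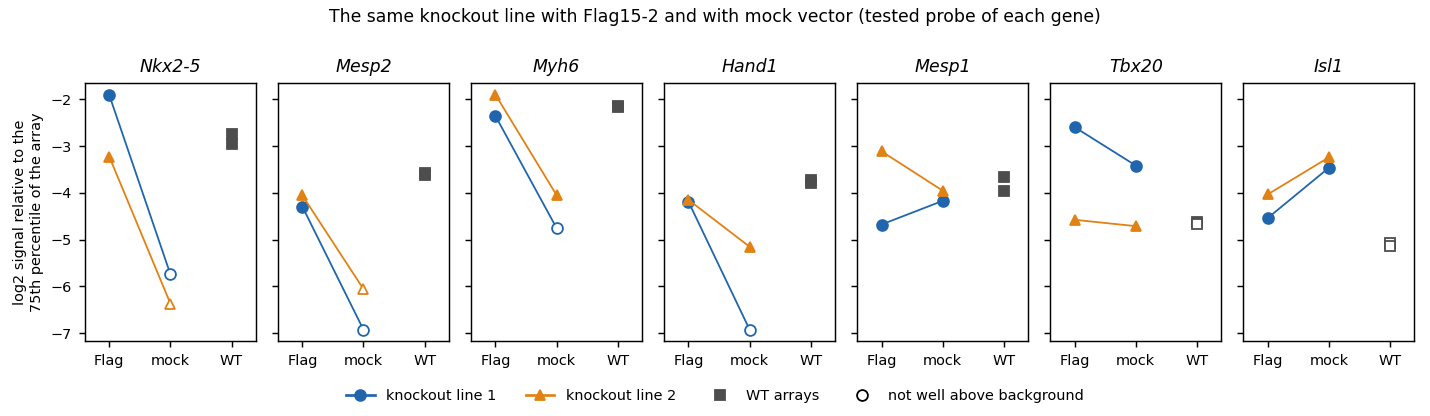
Level of the tested probe of each of the 7 genes (y axis, log2 signal relative to the 75th percentile of the array) in knockout line 1 and line 2, each joined between Flag15-2 and mock, with the WT arrays as squares and open symbols for values not well above background. Nkx2-5, Mesp2, Myh6 and Hand1 slope down towards mock in both lines, Isl1 slopes up, and Tbx20 keeps the lines apart.

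Flag15-2 against WT, limma called 0 of the 7 genes, against 0.533% of all features, and at an unadjusted p under 0.05 there was 1, Isl1, against 21.6% of features. An ordinary linear model called 0 as well. Nkx2-5 was at -1.91 and -3.23 in Flag15-2 and at -2.74 and -2.95 in WT, so the Flag15-2 arrays lay on either side of WT. Its difference of 0.28 had a 95% interval of -1.07 to 1.63 (adjusted p = 0.783), which does not show that the levels were equal. Myh6 differed by 0.03 (95% interval -0.76 to 0.82, adjusted p = 0.97), and Mesp2 by -0.58 (95% interval -1.42 to 0.27, adjusted p = 0.366), with both Flag15-2 arrays below both WT arrays. Hand1 differed by -0.41 (95% interval -2.03 to 1.2, adjusted p = 0.733) and Mesp1 by -0.08 (95% interval -1.55 to 1.39, adjusted p = 0.949). Isl1 was higher in level in Flag15-2 on both arrays, by 0.81 (SE 0.21, 95% interval 0.26 to 1.36, adjusted p = 0.136), at least 1.48-fold, so it lay between mock and WT. The second Tbx20 probe was at -2.81 and -4.24 in Flag15-2 and at -5.46 and -5.77 in WT, at least 2.51-fold (adjusted p = 0.247 with every probe tested), and the brightest gave 1.06 (adjusted p = 0.498).

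The 3 comparisons share arrays, so their values for a gene are not independent of each other. In the order of the group means, Nkx2-5 was highest in Flag15-2, then WT, then mock, and Flag15-2 and WT did not differ beyond the spread of the Flag15-2 arrays. Mesp2 and Hand1 were highest in WT, then Flag15-2, then mock. Myh6 had Flag15-2 and WT within 0.03 of each other and mock lowest, and Isl1 was highest in mock, then Flag15-2, then WT.

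**Figure D4:**
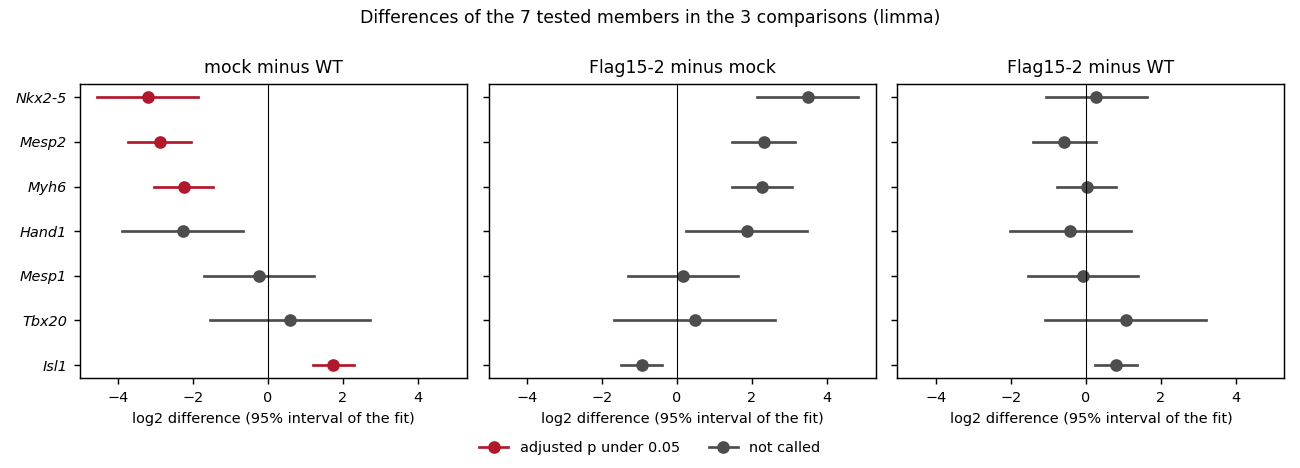
Differences of the 7 tested genes in the 3 comparisons (x axis, log2 difference; bars, 95% interval of the limma fit), with red for an adjusted p under 0.05. Nkx2-5, Mesp2 and Myh6 lie below 0 and Isl1 above 0 for mock minus WT, all in red, and no gene is red for Flag15-2 minus mock or for Flag15-2 minus WT.

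Other genes of the same developmental path were read from 3 lists. Of 22 genes of the early mesoderm and primitive streak, 16 were tested. In mock against WT, Bmp4, a ligand that induces mesoderm, rose by 2.08 (1.62 and 2.32 in mock, -0.12 and -0.11 in WT, adjusted p = 0.0413). Fgf8, a growth factor of the primitive streak, fell by 2.78 (-2.57 and -2.82 in mock, 0.12 and 0.07 in WT, adjusted p = 0.0382). Lhx1, a LIM homeobox factor, fell by 0.84 (-5.27 and -5.32 in mock, 1 of these well above background, -4.49 and -4.41 in WT, adjusted p = 0.0422). Lhx1 was not called with quantile normalization (-0.60, adjusted p = 0.0572), the authors' log2 values (-0.59, adjusted p = 0.0584), an intensity trend (adjusted p = 0.13) or normexp (-0.15, adjusted p = 0.286). The median difference of the 16 was -0.30, against 0.05 for all features, and 18.8% of them were called, against 6.12% of all. T, the brachyury factor of nascent mesoderm, had a difference of -3.04 that did not pass (adjusted p = 0.323). It was at -1.60 and -5.82 in Flag15-2, at -3.38 and -6.03 in mock and at -1.66 and -1.68 in WT, so that line 2 was low with either vector. In Flag15-2 against mock the largest differences of the list were those of Foxc1 (1.15, adjusted p = 0.585) and Kdr (1.08, adjusted p = 0.759), a forkhead factor and a receptor of vascular and heart precursors. In Flag15-2 against WT they were those of Fgf8 (-2.49, adjusted p = 0.0811) and T (-2.04, adjusted p = 0.534).

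Of 31 other cardiac transcription factors and regulators, 23 were tested. In mock against WT, Gata4, a zinc-finger factor of heart and endoderm, was at -3.25 and -3.84 in mock against -4.86 and -5.18 in WT, not well above background there. It was at least 2.38-fold higher in mock but was not called (adjusted p = 0.0642). Gata4 was kept by the filter on dim probes through the knockout arrays alone. The median of the 23 was 0.04, near the 0.05 of all features. Gata6, a relative of Gata4, had the largest absolute difference of the list in Flag15-2 against mock, 2.61, with -0.62 and -1.64 in Flag15-2 and -2.14 and -5.33 in mock, and it did not pass (adjusted p = 0.441). Next to it was Tbx1, a T-box factor of the pharyngeal and heart progenitors, at 1.01 (adjusted p = 0.644), and both genes were higher in line 1 than in line 2 with each vector. In Flag15-2 against WT, Gata6 differed by 2.44 (adjusted p = 0.307) and Tbx1 by 1.59 (adjusted p = 0.293).

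Of 32 genes of the contractile apparatus and calcium handling, 22 were tested, and 2 were called in mock against WT. Des, the intermediate filament desmin, rose by 1.07 (-1.14 and -1.42 in mock, -2.36 and -2.34 in WT, adjusted p = 0.0293), and Myl4, an atrial myosin light chain, fell by 2.06 (-3.65 and -2.90 in mock, -1.21 and -1.22 in WT, adjusted p = 0.0345). Myh7, the beta heavy chain of cardiac myosin, lay at -1.48 and -3.46 in mock and -0.17 and -0.18 in WT, a difference of -2.29 that did not pass (adjusted p = 0.162). Ankrd1, a muscle ankyrin repeat protein, was not well above background on either mock array and was at least 6.64-fold lower than in WT, without passing (adjusted p = 0.146). Ankrd1 was thus kept by the filter on dim probes without any mock array. The median of the 22 was -0.34, against 0.05 for all features, and 9.09% of them were called, against 6.12% of all. In Flag15-2 against mock, and in Flag15-2 against WT, limma called 0 genes of each of the 3 lists. At an unadjusted p under 0.05 there were 0 of 16, 5 of 23 and 1 of 22 in Flag15-2 against mock, against 13.4% of all features. In Flag15-2 against WT there were 7 of 16, 3 of 23 and 4 of 22, against 21.6% of all features. These counts follow the order in which the lists are given here. Of the alternatives, quantile normalization, median scaling and the authors' log2 values each called 1 contractile gene in Flag15-2 against mock, normexp called 1 early mesoderm gene in Flag15-2 against WT, and the others called 0 in these comparisons. In Flag15-2 against mock, Ankrd1 was at -3.01 and -5.47 in Flag15-2, the second not well above background, and at -5.08 and -7.84 in mock, with overlap between the groups (adjusted p = 0.544). Des differed by -1.03 (adjusted p = 0.0757), and in Flag15-2 against WT, Ankrd1 differed by -1.62 (adjusted p = 0.508) and Myl4 by -1.48 (adjusted p = 0.0959). In mock against WT, Des thus rose while Myl4 and Myh6 fell. Without either mock array Bmp4, Fgf8, Lhx1 and Des were not called there (adjusted p from 0.0545 to 0.131) and Myl4 was, and without either WT array none of these 5 was called.

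Of the 9 pluripotency markers, Utf1 was called higher in mock against WT and 0 were called in the other comparisons, with sums of 612.4 to 689.6 in Flag15-2, 632.4 to 702.6 in mock and 499.6 to 512.2 in WT, in multiples of the array's 75th percentile, and a median difference of 0.53 for mock minus WT. Markers of other cell types were read beside these genes. Of 14 fibroblast and feeder markers, 12 were tested, and Loxl1, Mmp2 and Fbn1 fell in mock against WT and rose in Flag15-2 against mock, while Loxl1 fell in Flag15-2 against WT. Their summed signal was 21.2 to 30.2 in Flag15-2, 22.1 to 30.6 in mock and 35.1 to 38.7 in WT, and Col6a1 and Lum were not well above background in any group. The sums of Flag15-2 and mock thus overlapped. Loxl1 and Fbn1 were not well above background on any mock array, so they passed the filter on dim probes without any mock array. Of 10 trophoblast markers, read because Hand1 is also a trophoblast gene, 7 were tested and 0 were called, with sums of 43.2 to 141.3 in Flag15-2, 27.2 to 47.8 in mock and 77.8 to 78.6 in WT, and Elf5 was not well above background on any array. Of 10 motor neuron and neural markers, read because Isl1 is also a motor neuron gene, 6 were tested, 1 (Nes) fell in mock against WT, and Lhx3 was not well above background on any array. Neurog2 was not well above it on any Flag15-2 or WT array and Sox1 not on any WT array, while each was on at least 1 mock array. The neural sums were 9.47 to 9.93 in Flag15-2, 8.87 to 9.02 in mock and 12.0 to 12.1 in WT, and the median difference of the 6, mock minus WT, was 0.25, so the sum and the median differ in sign. Of 8 cardiomyocyte markers, 6 were tested and 0 were called, with sums of 2.35 to 2.55 in Flag15-2, 2.04 to 2.46 in mock and 3.11 to 3.15 in WT. Myl2 and Tnnt2 were not well above background in Flag15-2 or WT, while each was on 1 mock array. Of 6 smooth muscle markers, 5 were tested and 0 called, with sums of 20.5 to 38.2 in Flag15-2, 12.5 to 18.2 in mock and 32.8 to 34.3 in WT, and Myh11 was not well above background on any array. Of 8 endothelial and blood markers, 4 were tested and Tek fell in mock against WT, with sums of 0.604 to 0.837 in Flag15-2, 0.493 to 0.65 in mock and 1.01 to 1.02 in WT, and Cdh5, Emcn and Hbb-bh1 were not well above background on any array. The median differences of the tested markers, mock minus WT, were -2.17 for fibroblast and feeder, -1.49 for smooth muscle and -0.82 for trophoblast. They were -0.33 for cardiomyocyte and -0.27 for endothelial and blood. For Flag15-2 minus mock these 5 medians were 0.49, 0.60, 0.79, 0.10 and 0.02, with 0.12 for neural and -0.34 for pluripotency markers. The part of such cells in the levels of the cardiac genes was not tested.

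The genes whose profile over the 6 arrays came closest to that of Nkx2-5, each profile centred on its own mean, were Fam162b, Crispld1, Kcnf1, Nipal4 and Cyp2j6, with root mean square differences of 0.197, 0.232, 0.234, 0.273 and 0.274 on the log2 scale among 13297 genes. Fam162b, the closest, was at -2.65 and -3.79 in Flag15-2, at -6.77 and -6.79 in mock, where it was not well above background, and at -3.25 and -3.50 in WT. Like Nkx2-5, it was highest in Flag15-2 replicate 1 and lowest in mock, which follows from its choice by likeness over these same arrays. The closest to Isl1 were Lgals4, Parvb, Slc22a18, Plvap and Tradd, with differences of 0.0962, 0.117, 0.12, 0.134 and 0.148. Lgals4 was at -2.32 and -1.53 in Flag15-2, at -1.16 and -0.78 in mock and at -2.67 and -2.73 in WT. Its order of the groups, the same as for Isl1, also follows from that choice.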

How the data were processed

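Total RNA labelled with Cy3 was hybridised to Agilent 4 x 44K arrays. Per the file headers, the intensity values as deposited were extracted by the authors with Agilent Feature Extraction 10.7.3.1, with local background subtraction, spatial detrending and surrogate values for the dimmest spots, and arrays were not scaled to each other. The other columns used, per the file headers, are flags of each spot. The log2 values of the authors' series matrix as deposited were made with GeneSpring GX11, per the labels, and served as 1 alternative. Their column medians were all 5.84, and each column correlated with its array's log2 signals at 0.9997 or higher, so they are equalised between arrays and not centred per gene. What the authors did between the 2 is not given in the sources used here.

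Control spots (1639 of 45018) and outlier-flagged spots were dropped, and log2 signals were averaged over the spots of a probe (41059 probes kept). A probe counted as well above background on an array where at least as many of its used spots were flagged so as were not. Probes were named through the RefSeq accessions of the files and a RefSeq gene table, which named 27143 probes. Levels are relative to each array's own 75th percentile. Probes well above background on at least 2 arrays were kept, the brightest per symbol, which left 13298 genes and 5466 unnamed probes. All 6 arrays entered 1 limma fit of the 3 groups (limma 3.58.1, R 4.3.3, lmFit and eBayes, residual degrees of freedom 3, prior 1.41). Figures were drawn with Python 3.11.15, numpy 2.4.6, pandas 2.3.3 and matplotlib 3.10.9. The fit was tested on simulated data.

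The replicate number pairs Flag15-2 with mock arrays of the same line. The correlation of deviations from group means between same-numbered arrays was 0.586 for Flag15-2 and mock, 0.0136 for Flag15-2 and WT and -0.0358 for mock and WT. The planned fit had no block.

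The members, the 3 lists, the marker lists and the tests were chosen with earlier results of these data known. Named genes are the 10 members, Dppa2 and Dppa4, list genes that were called (not all of them are reported here), the 2 of each list with the largest absolute difference in each comparison, and the 5 genes closest in profile to Nkx2-5 and to Isl1. The alternatives were quantile normalization, median scaling, normexp, the authors' log2 values, filters on dim probes, every probe, an intensity trend, averaged WT arrays, a replicate block, each array left out, only the arrays compared, and a linear model without eBayes. Normexp used median spot signals, since the files hold no mean signals, and an offset of 50 units. Slide as a block could not be fitted. The number of arrays, 2 per group, limits the precision.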

Additional observations from a re-analysis of the deposited data

Results flagged for a closer look

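Mesp1 met a rule for opposite directions in the knockout lines. Its brighter probe, Flag15-2 minus mock, gave -0.51 in line 1 and 0.84 in line 2. The difference between the lines was not tested, since each line has 1 array per vector. The dimmer Mesp1 probe gave 0.56 in line 1 and -0.18 in line 2, the opposite order, with mock replicate 1 not well above background.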

How the results depend on the processing

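Quantile normalization, median scaling, the authors' log2 values, every probe tested, an intensity trend and the replicate block each called the same 4 members (Nkx2-5, Mesp2, Myh6, Isl1) in mock against WT, and none of the 4 changed direction under any alternative run. Members called there were 0 with probes well above background on all arrays, which leaves out these genes, 1 without a filter (Mesp2), 0 with averaged WT arrays, 0 with an ordinary linear model and 2 (Nkx2-5 and Isl1) with only the 4 arrays compared. Leaving out 1 array gave 0 to 3: 0 without either WT array, 2 without mock replicate 1 (Hand1 and Mesp2), 3 without mock replicate 2 (Hand1, Mesp2 and Myh6) and 2 without either Flag15-2 array (Nkx2-5 and Isl1). Flag15-2 against mock, leaving out 1 array gave 0 to 2 members, and 0 were called under every other alternative. Flag15-2 against WT, 0 members were called under every alternative. The replicate block changed no call of a member, and of the list genes called in mock against WT it left 1 in early mesoderm and 0 among the contractile genes.

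Features called in mock against WT numbered 2371 with median scaling, 384 without a filter, 1761 with a trend, 0 with averaged WT arrays, 494 with the replicate block, 580 with the ordinary linear model and 0 to 888 with 1 array left out, against 1149 as reported. In Flag15-2 against mock they numbered 53 with normexp, 28 on all arrays, 48 without a filter, 0 with averaged WT arrays, 4 with the replicate block, 5 with the ordinary linear model, 0 with only the 4 arrays compared, 0 with the block in those 4 arrays (added after seeing the data) and 0 to 112 with 1 array left out, against 139. In Flag15-2 against WT they numbered 222 with quantile normalization, 390 with normexp, 223 with the authors' values, 23 on all arrays, 6 without a filter, 301 with a trend, 0 with averaged WT arrays, 0 with the block, 56 with the ordinary linear model, 5 with only the 4 arrays compared and 0 to 5 with 1 array left out, against 100. Those 100 were 27 higher and 73 lower, against 91 and 131 with quantile normalization, 192 and 198 with normexp, and 92 and 131 with the authors' values. Median scaling moved the median of all features by 0.232 in mock against WT, -0.117 in Flag15-2 against mock and 0.114 in Flag15-2 against WT.

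Directions reversed for uncalled differences only. With 1 array left out, Flag15-2 minus WT ran from -0.38 (without Flag15-2 replicate 1) to 0.94 for Nkx2-5, from -0.20 (without Flag15-2 replicate 2) to 0.25 for Myh6, and from -0.86 to 0.71 (without Flag15-2 replicate 1; 0.074 without WT replicate 2) for Mesp1. For Mesp1 it was also 0.025 with quantile normalization, 0.037 with median scaling and 0.036 with the authors' values. Flag15-2 minus mock ran from -0.61 (without Flag15-2 replicate 2) to 0.95 for Mesp1, and from -0.51 (without Flag15-2 replicate 1; -0.17 without mock replicate 2) to 1.47 for Tbx20. Mock minus WT ran from -0.062 (without mock replicate 1) to 1.23 for Tbx20. The cause of these changes was not tested, apart from the fewer features or arrays that some alternatives hold. Signal over background limits most of the 16 probes: 1 was well above it on all 6 arrays and 5 on none.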
